A study of Homo sapiens with 4 samples.

Results

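NEAT1, MALAT1, MIR100HG, MIR22HG, TUG1 and H19 are long noncoding RNAs that either stay in the nucleus or carry microRNAs within their genes. They were picked by name from the expression table of an SRSF1 knockdown study and made up 6 of its 40205 rows. Values of these same 4 libraries were known when the 6 were selected, so their levels and ratios are given as a description, with no test. The study sequenced polyadenylated RNA from the human glioblastoma lines U87MG and U251. The KD library of each line came from cells infected with a lentivirus for an sh-SRSF1 hairpin, and the WT library from cells infected with a control hairpin virus, sh-NC. Both arms were infected at a multiplicity of infection of 20, kept under puromycin for 1 week, and grown as stable lines in DMEM with fetal bovine serum. WT therefore means infected and selected cells, not untouched ones, and no hairpin sequence is given in the sources used here. There was 1 library for each line and arm, 4 in all, so no ratio within a line can be set against replicates.

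The libraries held 25974900 reads in U87MG KD, 26298575 in U87MG WT, 27953878 in U251 KD and 25099799 in U251 WT, as recovered from the steps in the deposited values. The unit is RPKM, reads per kilobase of gene model scaled to the library's total, and 1 read in a 1 kb gene was worth 0.0358 to 0.0398 RPKM. SRSF1 itself stood at 14.6 RPKM in U87MG KD against 88.3 in U87MG WT, and at 15.8 RPKM in U251 KD against 109 in U251 WT. This checks the labels, with a KD level 0.166 times that of WT in U87MG and 0.145 times in U251. Of the glial markers, VIM was high in every library, 1065 to 1675 RPKM. SOX2 stood at 49.3 and 47.9 RPKM in U251 KD and WT but at 0.0460 and 0.121 RPKM in U87MG KD and WT, GFAP did not exceed 1.47 RPKM in any library, and AQP4 was at 0 in all 4. Both lines thus had abundant VIM but little of the astrocyte markers GFAP and AQP4. CD44 was also high in every library, 124 to 184 RPKM, while other glial markers differed between the lines. SOX9 stood at 14.4 and 13.9 RPKM in U251 KD and WT but at 1.096 and 0.937 in U87MG KD and WT. NES stood at 83.7 and 61.1 RPKM in U251 KD and WT but at 1.29 and 1.79 in U87MG KD and WT. OLIG2 went the other way, at 2.46 and 0.936 RPKM in U87MG KD and WT but at 0.0263 and 0.0146 in U251 KD and WT. Of 17 markers of other cell types, 3 reached 1 RPKM in at least 1 library, namely CD68, KRT8 and KRT18, while CD3E, RBFOX3 and MOG were at 0. The 17 markers summed to 114 RPKM in U87MG KD, 64.5 in U87MG WT, 36.9 in U251 KD and 36.8 in U251 WT, most of the U87MG sums being CD68 at 111 and 62.4 RPKM in KD and WT. The part of these cells in the results that follow was not tested. In bulk RNA, fewer cells of a type and less RNA per cell cannot be told apart.

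NEAT1 is the architectural RNA of paraspeckles, nuclear bodies that assemble around its long isoform together with proteins such as NONO and SFPQ. MALAT1, transcribed from the neighbouring gene, gathers in nuclear speckles, the stores of splicing factors in which SRSF1 and the other SR proteins reside. The 3′ end of MALAT1 and that of the long NEAT1 isoform are cut by RNase P at a tRNA-like structure and are protected by a triple helix in place of a poly(A) tail, while the short NEAT1 isoform is polyadenylated. SRSF1 is a splicing factor known to bind both RNAs. MIR100HG and MIR22HG are host genes: Drosha and DGCR8 cut microRNA hairpins out of their primary transcripts. TUG1 is a widely expressed lncRNA, and H19 is an imprinted fetal RNA that carries a microRNA in its first exon.

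The microRNAs of the 3 host genes are shown because the deposited table has a row for each hairpin beside its host. The mature sequences are RefSeq's, 5′ to 3′, with the seed, bases 2 to 8, in capitals. Positions are on GRCh38, minus strand.
miR-100-5p: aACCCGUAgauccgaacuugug
let-7a-5p: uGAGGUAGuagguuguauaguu
miR-125b-5p: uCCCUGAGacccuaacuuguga
miR-22-3p: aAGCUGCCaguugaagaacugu
miR-675-5p: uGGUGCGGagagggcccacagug
No seed is shared, so the 5 microRNAs form 5 seed groups. The first 3 lie in MIR100HG, at chr11:122152275-122152296 for miR-100-5p, chr11:122146568-122146589 for let-7a-5p and chr11:122099809-122099830 for miR-125b-5p. All 3 are intronic: miR-100-5p and let-7a-5p in 8 of the 39 annotated MIR100HG transcripts and miR-125b-5p in 23 of 39. miR-22-3p, at chr17:1713914-1713935, is exonic in all 19 MIR22HG transcripts. miR-675-5p, at chr11:1996800-1996822, is exonic in 4 and intronic in 1 of the 12 H19 transcripts.

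For the 2 RNAs that SRSF1 is known to bind, the stretch of 30 bases richest in purine motifs among those searched is shown. GGAGA and GAAGAA were used because they are motifs described for SRSF1. In NEAT1 the search for this stretch covered only the first 3735 of the 22743 bases of the longest transcript, and in MALAT1 all of it. Capitals mark the motifs, which were searched on the transcript strand only.
NEAT1: gatgagggtGAAGAAggGGAGAgggttggt
MALAT1: ctatttttaaccGAAGAActactttttgcc
The NEAT1 stretch lies at chr11:65424970-65424999 on the plus strand of GRCh38, bases 2173 to 2202 of the longest transcript, and holds both motifs. The MALAT1 stretch lies at chr11:65498927-65498956 on the plus strand, bases 1166 to 1195, and is the first of several with 1 GAAGAA. Over the whole transcript, MALAT1 held 16 GGAGA and 9 GAAGAA, or 1.84 and 1.03 per kb. NEAT1 held 26 and 7 in its 22743 bases, or 1.14 and 0.308 per kb, but its first 3735 bases alone held 11 and 2, or 2.95 and 0.535 per kb. Among 5772 lncRNA genes with a transcript of at least 1 kb, 94.2% held GGAGA, with a median of 1.69 per kb, and 68.9% held GAAGAA, with a median of 0.529 per kb. By GGAGA density the whole NEAT1 transcript exceeded 30.6% of these lncRNA transcripts, its first 3735 bases 85.4%, and MALAT1 56.2%. By GAAGAA density the shares were 35.3%, 50.5% and 77.4%, so the standing of NEAT1 depended on the region taken. TUG1 had the lowest GGAGA density of the 6, 0.803 per kb, and MIR22HG the highest, 3.05 per kb. H19 held no GAAGAA. A match to the letters is a description and not a binding site.

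NEAT1 and MALAT1 were by far the most abundant of the 6 in every library. MALAT1 led in both KD libraries and NEAT1 in both WT libraries. In U87MG KD the order was MALAT1, NEAT1, MIR22HG, MIR100HG, TUG1 and H19, and in U87MG WT it was NEAT1, MALAT1, MIR100HG, MIR22HG, TUG1 and H19. In U251 KD the order was MALAT1, NEAT1, TUG1, MIR100HG, MIR22HG and H19, and in U251 WT it was NEAT1, MALAT1, TUG1, MIR22HG, MIR100HG and H19. Neighbours within the counting error of one another were MIR22HG and MIR100HG in U251 WT, at 8.5 and 8.05 RPKM from 283 and 813 reads. Together the 6 RNAs took 0.323% of all reads in U87MG KD, 0.277% in U87MG WT, 0.149% in U251 KD and 0.220% in U251 WT. Among the 6196 rows typed miscRNA, the class that holds the lncRNAs, NEAT1 ranked 8th by RPKM in U87MG KD and 4th in U87MG WT, and 17th in U251 KD and 4th in U251 WT. MALAT1 ranked 6th in U87MG KD and 9th in U87MG WT, and 11th in U251 KD and 8th in U251 WT.

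**Figure D1:**
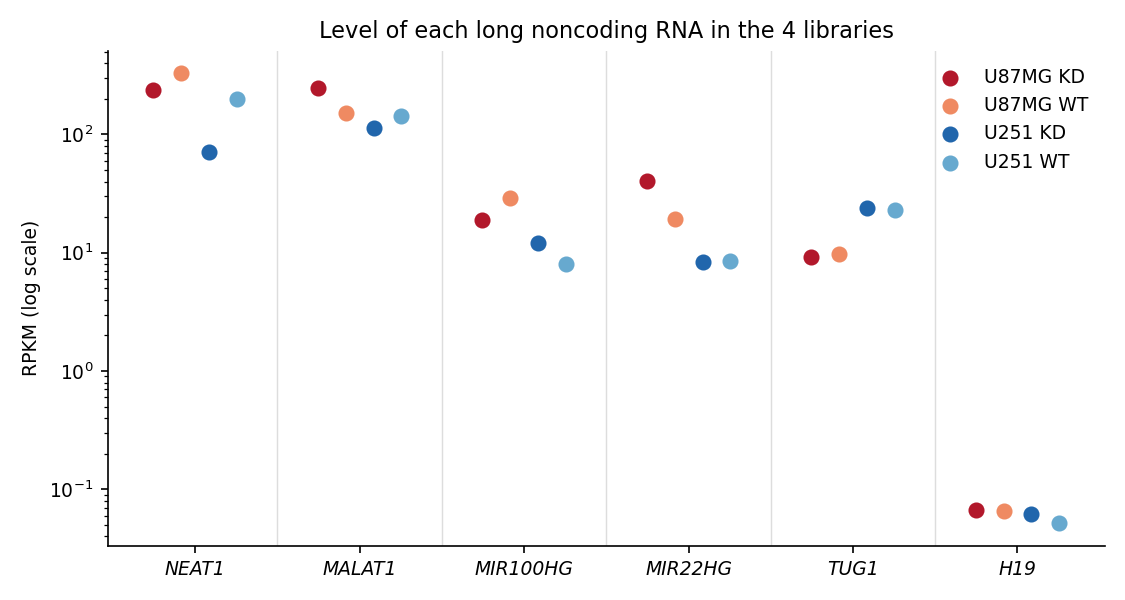
RPKM (log axis) of the 6 lncRNAs in each of the 4 libraries, KD left of WT within each line, 1 library per point. NEAT1 and MALAT1 lie between 71.6 and 329 RPKM, the host genes and TUG1 between 8.05 and 40.1 RPKM, and H19 under 0.07 RPKM.

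NEAT1 was lower in KD than in WT in both lines, and further apart in U251. It stood at 237 RPKM in U87MG KD against 329 in U87MG WT, from 22997 and 32322 reads, a KD level 0.720 times that of WT (95% exact binomial interval 0.708 to 0.733). In U251 it stood at 71.6 RPKM in KD against 200.1 in WT, from 7474 and 18758 reads, a KD level 0.358 times that of WT (0.348 to 0.368). Both KD libraries were below the WT library of their own line, but U87MG KD was above U251 WT, so the arms overlapped across lines. These and the later intervals cover counting error only, since each arm of a line is 1 library. On the log2(RPKM + 1) scale used for every log2 ratio here, NEAT1 differed by -0.47 in U87MG and -1.47 in U251. It was past 2-fold lower in U251, where 1.71% of the 16098 rows with at least 1 RPKM in some library were, and short of it in U87MG, where 3.58% were.

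The NEAT1 row counts part of a long gene, which lies at chr11:65422774-65445540 on GRCh38. The depth steps gave a gene model of 3735 bases, whereas the longest annotated transcript has 22743 and none of the 8 annotated transcripts has 3735. The row is therefore closer in length to the short, polyadenylated isoform, and the long isoform that builds paraspeckles was not measured separately. About 3.40% of the 31-base words of the longest transcript also occur in other annotated genes.

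MALAT1 went opposite ways in the lines. It stood at 247 RPKM in U87MG KD against 152 in U87MG WT, from 55906 and 34868 reads, a KD level 1.62 times that of WT (1.60 to 1.65). In U251 it stood at 114 RPKM in KD against 142 in WT, from 27675 and 31130 reads, a KD level 0.798 times that of WT (0.785 to 0.811). U87MG KD was the highest of the 4 libraries and U251 KD the lowest, with both WT libraries between them. The log2 ratios were 0.70 in U87MG and -0.32 in U251. Neither reached 2-fold, as 2.33% of rows did in the higher direction in U87MG and 1.71% in the lower direction in U251. The gene model recovered for MALAT1, 8708 bases, equals its longest annotated transcript, and the gene lies at chr11:65497688-65506516, 52147 bases beyond the end of NEAT1 on the same strand.

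Set against each other within a library, the neighbours shifted alike in both lines. The MALAT1 level was 1.04 times that of NEAT1 in U87MG KD against 0.463 times in U87MG WT, and 1.59 times in U251 KD against 0.712 times in U251 WT. KD over WT, this quotient was 2.25 in U87MG and 2.23 in U251. A quotient within a library does not depend on how that library was scaled, and it shows an unequal change, not which of the pair moved. MIR22HG over NEAT1 likewise had KD-to-WT quotients of 2.90 in U87MG and 2.72 in U251. Pairs with TUG1 did not do so: MALAT1 over TUG1 had quotients of 1.72 in U87MG and 0.775 in U251, and NEAT1 over TUG1 0.764 and 0.347. The quotients given here as alike both have NEAT1 as their denominator and were noticed among these values, and no test was made of them. Not every pair was compared, so they do not show that likeness is particular to NEAT1. MIR22HG also had a higher KD-to-WT ratio than MALAT1 in both lines, 2.09 against 1.62 in U87MG and 0.974 against 0.798 in U251.

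Some of the RNAs that normally lack a poly(A) tail also differed between these poly(A)-selected libraries. RMRP, the RNA of RNase MRP, stood at 18.8 RPKM in U87MG KD against 2.84 in U87MG WT, and at 4.81 in U251 KD against 2.53 in U251 WT. RPPH1, the RNA subunit of RNase P, stood at 39.5 RPKM in U87MG KD against 8.59 in U87MG WT, and at 15.2 in U251 KD against 5.49 in U251 WT. RN7SK, which holds the elongation factor P-TEFb inactive, stood at 80.1 RPKM in U87MG KD against 22.8 in U87MG WT, and at 14.7 in U251 KD against 7.44 in U251 WT. All 3 were higher in KD in each line, with larger KD-to-WT ratios in U87MG (3.52 to 6.63) than in U251 (1.90 to 2.77). Other classes were mixed. KD over WT, the summed RPKM of 95 snRNA rows was 2.02 in U87MG and 0.998 in U251, that of 388 snoRNA rows 0.744 and 0.984, and that of 449 tRNA rows 1.37 and 0.848. TERC, the telomerase RNA, was at 1.01 and 4.49. It had 14 reads in each U87MG library, 5 in U251 KD and 1 in U251 WT, too few to compare. Summed RPKM of the 69 replication-dependent histone rows, whose mRNAs end without a tail, was 2.32 times that of WT in U87MG KD and 4.30 times in U251 KD. The 23 rRNA rows held 1.51% of reads in U87MG KD against 0.738% in U87MG WT, and 0.810% in U251 KD against 0.729% in U251 WT. Their summed RPKM was 2.03 times that of WT in U87MG KD and 1.12 times in U251 KD. Unlike RMRP, RPPH1 and RN7SK, the rRNA rows were thus near level in U251, as the snRNA rows were. These classes were chosen after their values were seen. How far the selection of RNA by its tail bears on MALAT1 and NEAT1 was not tested.

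**Figure D2:**
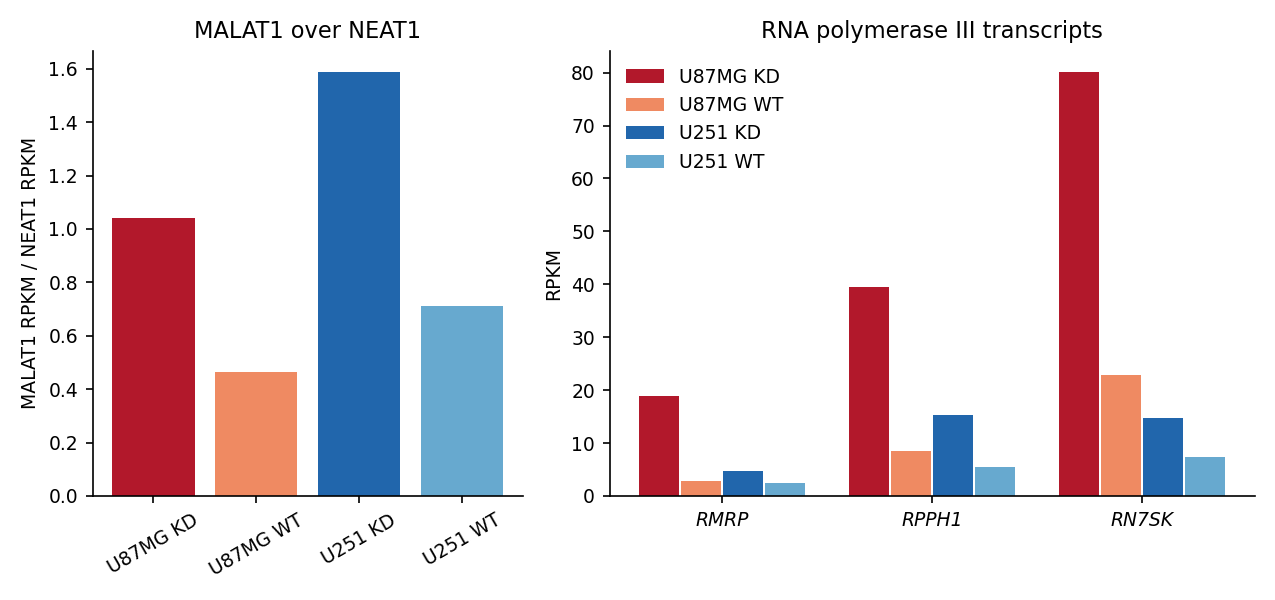
Bars give the MALAT1 level over the NEAT1 level within each library (left panel) and the RPKM of RMRP, RPPH1 and RN7SK (right panel), KD left of WT in each line, 1 library per bar. The ratio is 1.04 and 1.59 in the KD libraries of U87MG and U251, above 0.463 and 0.712 in their WT libraries, and all 3 RNAs on the right are higher in KD than in WT of the same line.

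RPPH1 and RN7SK passed the test made across all genes, which fitted KD against WT with the cell line as a block in limma and adjusted p over all 16098 rows. RPPH1 rose by 1.70 ± 0.21 on the log2 scale (SE, adjusted p = 0.014, 2 libraries an arm), and RN7SK rose by 1.33 ± 0.23 (adjusted p = 0.027), whereas RMRP, at 1.54 ± 0.34, had an adjusted p of 0.052. Over all rows 1.16% were called higher in KD and 2.61% lower. The fit has 1 residual degree of freedom, which is the difference between the lines in their KD-to-WT ratio. Limma moderates it with the spread of all genes, so the p-values do not measure the spread of repeat cultures. The labels name no separate cultures, and differences among these 4 libraries may be technical. Without the line block limma called 0 genes, with 183 lower and 79 higher at an unadjusted p below 0.05. With every row above 0 kept it also called 0, with 1890 lower and 1234 higher by that measure, so each limma call below rests on the block and the filter. With libraries rescaled by trimmed means RPPH1 passed and RN7SK did not (limma adjusted p = 0.034 and 0.051), while RMRP passed with a pseudocount of 0.1 (0.047).

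Genes of the proteins that NEAT1 gathers mostly had lower RNA levels in KD by small amounts. Limma called none of the 20 listed paraspeckle genes. In U87MG 18 of 20 had a lower level in KD and in U251 15 of 20, where 55.5% and 50.5% of all rows tested did. The list had median log2 ratios of -0.29 and -0.15, against -0.053 and -0.0037 over all rows tested. Before adjustment, limma counted 7 of the 20 as lower at p below 0.05 and 0 as higher, while over all rows it counted 12.8% lower and 8.29% higher. Counts before adjustment in the other lists are to be read against these shares. The 4 with the largest mean ratio were SFPQ, the splicing factor paired with NONO in paraspeckles, at -0.94 in U87MG and -0.40 in U251, RBM14 at -0.84 and -0.53, HNRNPH3 at -0.69 and -0.62, and HNRNPA1 at -0.64 and -0.54. PSPC1 and FAM98A were the 2 genes higher in KD in both lines, PSPC1 at 0.08 in U87MG and 0.40 in U251.

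Nuclear speckle genes, the setting of MALAT1, included 2 calls among 21, both lower: SRSF1, the target of the hairpin, and SRSF2. Of all rows, 2.61% were called lower and 1.16% higher. SRSF1 fell by 2.62 ± 0.16 on the log2 scale (SE, limma adjusted p = 0.0022). SRSF2, another SR protein of splicing, stood at 35.9 RPKM in U87MG KD against 63.5 in U87MG WT, and at 45.1 in U251 KD against 79.0 in U251 WT. It fell by 0.80 ± 0.16 (limma adjusted p = 0.041), a call lost under trimmed-mean rescaling (adjusted p = 0.059). SRSF7 at -0.93 and -0.39 in U87MG and U251, SRSF3 at -0.74 and -0.46, SRRM1 at -0.88 and -0.50, and U2AF2 at -0.60 and -0.52 did not pass. In U87MG 17 of the 21 were lower, with a median of -0.37, and in U251 11 were, with a median of -0.0025, beside the 55.5% and 50.5% of all rows. Before adjustment limma counted 7 of the 21 lower and 0 higher at p below 0.05, beside 12.8% and 8.29% of all rows.

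Genes that form or trim the ends of MALAT1 and NEAT1, among them RNase P and RNase Z, nuclear exosome and m6A methyltransferase subunits, gave no limma call among 20, with 1 lower and 0 higher at p below 0.05 before adjustment. Their median log2 ratio was -0.25 in U87MG, with 15 of 20 lower, and 0.03 in U251, with 7 of 20 lower, where 55.5% and 50.5% of all rows were lower. EXOSC10, a nuclear exosome nuclease, was at -0.68 in U87MG and -0.40 in U251. METTL16, which binds the MALAT1 triple helix, was at -0.40 and -0.18, METTL3, the m6A methyltransferase, at 0.18 and 0.40, and ELAC2, the RNase Z that trims the tRNA-like end, at -0.60 and 0.02.

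**Figure D3:**
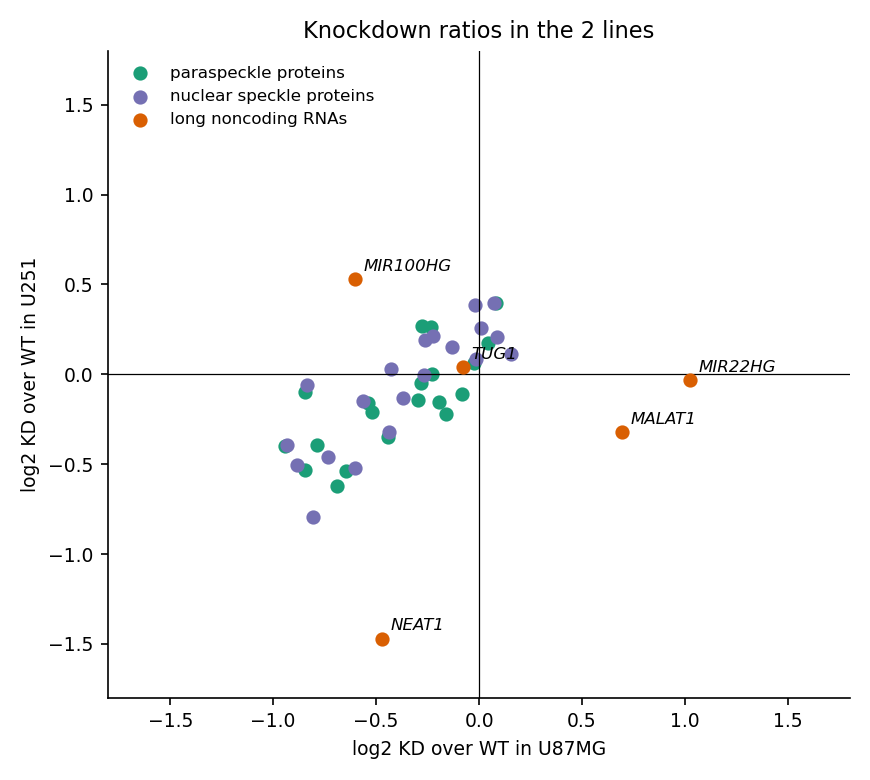
log2 KD-over-WT ratio of (RPKM + 1) in U251 (vertical) against that in U87MG (horizontal), 1 point for each paraspeckle protein gene, nuclear speckle protein gene without SRSF1, and measured lncRNA. The protein genes lie between -0.94 and 0.40 on both axes, while NEAT1 (-0.47 and -1.47 in U87MG and U251), MALAT1 (0.70 and -0.32), MIR22HG (1.02 and -0.03) and MIR100HG (-0.60 and 0.53) lie outside their cloud of points.

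MIR100HG went opposite ways in the lines, and the other way round from MALAT1. It stood at 18.8 RPKM in U87MG KD against 29 in U87MG WT, from 1963 and 3068 reads, a KD level 0.648 times that of WT (0.612 to 0.686). In U251 it stood at 12 RPKM in KD against 8.05 in WT, from 1356 and 813 reads, a KD level 1.5 times that of WT (1.37 to 1.64). Within each line the counting intervals excluded 1, while both U87MG libraries lay above both U251 libraries. The log2 ratios were -0.60 and 0.53. The gene spans chr11:122028327-122556721 on the minus strand, and the row's model of 4026 bases is longer than the longest of its 39 annotated transcripts, 3370 bases. No 31-base word of that transcript occurs in another annotated gene.

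The hairpin rows inside MIR100HG had few reads, and mature microRNAs were not measured. MIR125B1 had 7 reads in U87MG KD against 36 in U87MG WT, and 41 in U251 KD against 41 in U251 WT, or 3.06, 15.6, 16.7 and 18.6 RPKM. Its KD level was 0.197 times that of WT in U87MG (0.0739 to 0.449) and 0.898 times in U251 (0.568 to 1.42). MIRLET7A2 had 1 read in U87MG KD against 9 in U87MG WT, and 1 in each U251 library, and MIR100 had 3 reads in U87MG WT and 0 in the other 3 libraries, which allows up to 3. All 3 hairpin rows thus had fewer reads in U87MG KD than in U87MG WT, as their host did, with MIR100 inside the limit that a count of 0 allows, and in U251 the MIR125B1 interval spanned 1. The MIR125B1 level was 0.163 times that of MIR100HG in U87MG KD against 0.537 times in U87MG WT, and 1.38 times in U251 KD against 2.31 times in U251 WT.

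MIR22HG was 2-fold higher in KD in U87MG and level in U251. It stood at 40.1 RPKM in U87MG KD against 19.2 in U87MG WT, from 1383 and 671 reads, a KD level 2.09 times that of WT (1.90 to 2.29). In U251 it stood at 8.28 RPKM in KD against 8.5 in WT, from 307 and 283 reads, a KD level 0.974 times that of WT (0.826 to 1.15). U87MG KD stood apart above the other 3 libraries, and the U251 libraries overlapped within counting error. The log2 ratios were 1.02 and -0.03, so MIR22HG was past 2-fold higher in U87MG, as 2.33% of rows were, and not in U251, where 1.17% were. The gene lies at chr17:1711493-1717174 on the minus strand. MIR22, inside its exon, had 4 reads in U87MG KD against 1 in U87MG WT and 0 in both U251 libraries, too few to compare. The hairpin makes up 2.12% of the host's 31-base words, so reads there could have been counted to either row.

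**Figure D4:**
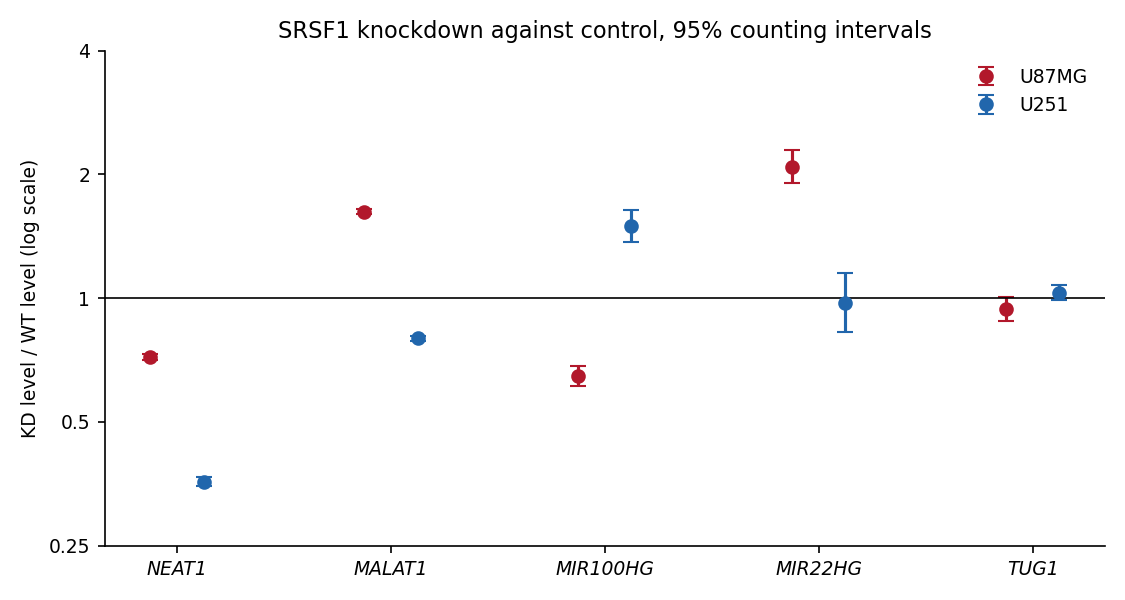
KD-over-WT level ratio (log axis) of the 5 lncRNAs above the low-value filter, U87MG left of U251, with 95% exact binomial intervals of counting error. NEAT1 is below 1 in both lines (0.720 and 0.358), MALAT1 (1.62 and 0.798) and MIR100HG (0.648 and 1.5) lie on opposite sides, and TUG1 stays near 1.

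Genes of the machinery that cuts and loads microRNAs mostly had lower RNA levels in KD in U87MG. There 16 of 17 genes above the filter were lower, with a median log2 ratio of -0.22. In U251 11 of 17 were lower, with a median of -0.09. The shares of all rows below their WT level were 55.5% for U87MG and 50.5% for U251, and the medians of all rows were -0.053 and -0.0037. Limma called none of the 17, and before adjustment it counted 1 lower and 0 higher at p below 0.05, beside 12.8% and 8.29% over all rows. DROSHA, the nuclease that releases hairpins, was at -0.58 in U87MG and -0.20 in U251, its partner DGCR8 at -0.64 and -0.14, the exporter XPO5 at -0.67 and -0.07, and the slicer AGO2 at -0.49 and -1.08.

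Among other genes that carry microRNAs, 1 of 19 was called, SMC4, a condensin subunit that hosts miR-15b and miR-16. It stood at 67.7 RPKM in U87MG KD against 175 in U87MG WT, and at 156 in U251 KD against 252 in U251 WT, and it fell by 1.02 ± 0.19 (SE, limma adjusted p = 0.035, and 0.056 under trimmed-mean rescaling). MCM7, a replicative helicase subunit, was at -1.08 and -0.19, DLEU2 at -1.04 and -0.58, CTDSPL at -0.66 and -0.86 and CTDSP1 at -0.78 and -0.62 in U87MG and U251, none of them called. The 19 had medians of -0.08 in U87MG and -0.13 in U251. Before adjustment limma counted 7 of them lower and 4 higher at p below 0.05, beside 12.8% and 8.29% of all rows. The call stands beside 2.61% of all rows called lower and 1.16% higher.

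Known targets of let-7, whose a2 copy lies in MIR100HG, showed 1 call among 17. E2F2, a cell cycle transcription factor, stood at 0.415 RPKM in U87MG KD against 2.67 in U87MG WT, and at 0.916 in U251 KD against 2.18 in U251 WT, and it fell by 1.05 ± 0.23 (SE, limma adjusted p = 0.0496). The call was lost under trimmed-mean (adjusted p = 0.078) and quantile (0.051) rescaling. The RNA-binding protein genes IGF2BP2, at 0.34 in U87MG and 0.64 in U251, and IGF2BP3, at 0.69 and 0.22, had higher levels in KD without passing. So did the growth gene HMGA2 at 0.28 and 0.23. CDC25A, a cell cycle phosphatase, was at -1.0 and -0.07. The median over the 17 was -0.03 in U87MG and 0.06 in U251. Before adjustment limma counted 1 lower and 2 higher at p below 0.05, beside 12.8% and 8.29% of all rows. The call stands beside 2.61% of all rows called lower and 1.16% higher.

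TUG1 was level between arms and separated the lines. It stood at 9.28 RPKM in U87MG KD against 9.84 in U87MG WT, from 1712 and 1838 reads, a KD level 0.943 times that of WT (0.882 to 1.01). In U251 it stood at 23.7 RPKM in KD against 23.1 in WT, from 4717 and 4113 reads, a KD level 1.03 times that of WT (0.987 to 1.07). The KD and WT libraries of a line lay side by side, and both U251 libraries lay above both U87MG libraries. The log2 ratios were -0.08 and 0.04, and both intervals spanned 1. The gene lies at chr22:30969245-30979395 on the plus strand, with a model of 7105 bases against 7469 in the longest transcript, 6.99% of whose 31-base words occur in other annotated genes.

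H19 was at the edge of detection. It had 4 reads in U87MG KD against 4 in U87MG WT, and 4 in U251 KD against 3 in U251 WT, or 0.0667, 0.0659, 0.0620 and 0.0518 RPKM. No difference was detectable at this depth, and no ratio is given. MIR675, within its exon, had 0 reads in all 4 libraries. IGF2, its imprinted neighbour, did not exceed 0.0231 RPKM. Of 22 listed imprinted genes, 10 passed the filter, and limma called none of them, with 1 lower and 1 higher at p below 0.05 before adjustment. MEST, at 35.6 RPKM in U251 KD against 18.7 in U251 WT and 0.0768 in U87MG KD against 0 in U87MG WT, and GRB10, an insulin receptor adaptor, at log2 ratios of 0.33 in U87MG and 1.07 in U251, had higher levels in KD in both lines without passing. SGCE was at -0.64 in U87MG and -0.38 in U251 and PHLDA2 at -0.45 and -0.26, lower in both lines and not called either.

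Between the lines, 4 of the 5 measured lncRNAs were higher in U87MG in both arms, and 3 of 5 under quantile rescaling, where the MALAT1 difference in WT turned to -0.09 on the log2 scale. NEAT1 in U87MG was 3.31 times its U251 level in KD (3.23 to 3.40) and 1.64 times in WT (1.62 to 1.67). MALAT1 was 2.17 times its U251 level in KD (2.14 to 2.21) and 1.07 times in WT (1.05 to 1.09), so the lines were nearly level in WT and apart in KD. MIR100HG was 1.56 times its U251 level in KD (1.45 to 1.67) and 3.60 times in WT (3.33 to 3.90), the reverse order. MIR22HG was 4.85 times its U251 level in KD (4.28 to 5.5) and 2.26 times in WT (1.97 to 2.61). TUG1 was 0.391 times its U251 level in KD (0.369 to 0.413) and 0.427 times in WT (0.403 to 0.451). On the log2(RPKM + 1) scale the differences in KD and WT were 2.15 and 1.09 for MIR22HG, the one lncRNA of the 5 past 2-fold higher in both arms, and -1.27 and -1.15 for TUG1, the one past 2-fold lower in both. Of all rows 7.11% were past 2-fold higher in U87MG in both arms and 9.49% lower, and limma called 21.6% higher and 27% lower. NEAT1 and both host genes thus kept U87MG clearly above U251 whichever arm was compared. The share of rows whose KD-to-WT ratio took opposite signs in the lines was 31.8%, beside MALAT1, MIR100HG, MIR22HG and TUG1 here, of which TUG1 in both lines and MIR22HG in U251 lay near 0, and TUG1 in U87MG turned positive under trimmed-mean and quantile rescaling.

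The protein-coding neighbours of the 6 genes gave 1 limma call among the 19 measured, beside 1.16% called higher and 2.61% lower over all rows. TLCD2, a membrane lipid gene that starts 1054 bases downstream of the end of MIR22HG on the same strand, at chr17:1702790-1710438, had the largest difference of these neighbours. It stood at 4.46 RPKM in U87MG KD against 0.599 in U87MG WT, from 684 and 93 reads, and at 11.4 RPKM in U251 KD against 0.810 in U251 WT, from 1885 and 120 reads. Both KD libraries lay above both WT libraries. TLCD2 rose by 2.28 ± 0.25 on the log2 scale (SE, limma adjusted p = 0.010, and 0.027 under trimmed-mean rescaling), with ratios of 1.77 in U87MG and 2.78 in U251. MIR22HG, next to it, had 1.02 and -0.03. WDR81, also a neighbour of MIR22HG, was at 0.29 in U87MG and -0.18 in U251.

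Around NEAT1 and MALAT1, FRMD8 was at -0.71 in U87MG and -0.75 in U251, LTBP3 at -0.11 and -0.25, SSSCA1 at -0.15 and 0.25, FAM89B at 0.25 and -0.20, and EHBP1L1 at -0.65 and 0.25, none called. EHBP1L1 belonged to U87MG, at 27.1 and 43.0 RPKM in KD and WT there against 0.725 and 0.454 RPKM in U251 KD and WT, a line difference of 4.47 ± 0.23 on the log2 scale (SE, limma adjusted p = 6.5e-06). Around MIR100HG, SORL1 was at 0.03 and -0.25, BLID at -0.66 and -0.08 and UBASH3B at -0.52 and -0.04. Around TUG1, MORC2 was at -0.03 and 0.09, SMTN at -0.39 and 0.20, SELM at 0.64 and -0.21 and OSBP2 at 0.36 and 0.06. SMYD4 at -0.61 and -0.41 and the core splicing factor gene PRPF8 at -0.49 and -0.46 lie near MIR22HG too, and MRPL23 at 0.08 and 0.16 and LSP1 at -0.07 and -0.79 lie near H19. The median of the 19 was -0.07 in U87MG and -0.08 in U251, and before adjustment limma counted 1 higher and 3 lower at p below 0.05, near the 8.29% and 12.8% of all rows.

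**Figure D5:**
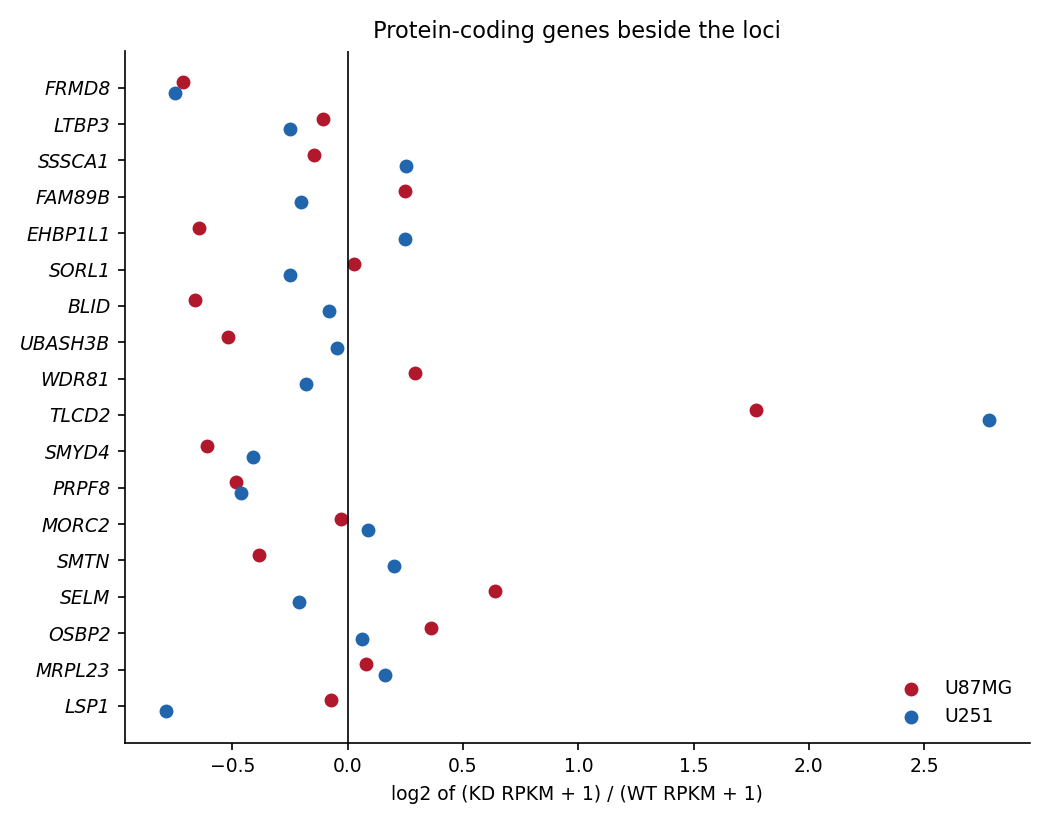
log2 KD-over-WT ratio of (RPKM + 1) for 18 of the 19 measured protein-coding genes beside the lncRNA loci, in U87MG (red) and U251 (blue), 1 library pair per point. TLCD2, beside MIR22HG, stands at 1.77 and 2.78, while the other neighbours plotted lie between -0.79 and 0.64.

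Transcription factors known to drive these lncRNAs, such as hypoxia-inducible factors for NEAT1, gave 2 calls among 10, both lower. Of all rows, 2.61% were called lower and 1.16% higher. Before adjustment limma counted 4 of the 10 lower and 1 higher at p below 0.05, beside 12.8% and 8.29% of all rows. EPAS1, which encodes HIF-2alpha, stood at 20.5 RPKM in U87MG KD against 38.2 in U87MG WT, and at 4.77 in U251 KD against 9.10 in U251 WT. It fell by 0.84 ± 0.16 (SE, limma adjusted p = 0.038). E2F1 stood at 11.8 RPKM in U87MG KD against 30.9 in U87MG WT, and at 13.4 in U251 KD against 22.4 in U251 WT, and it fell by 1.01 ± 0.20 (limma adjusted p = 0.039). Both calls were lost under trimmed-mean rescaling (adjusted p = 0.060 and 0.062). ARNT, the partner of both hypoxia factors, was at -0.60 in U87MG and -0.77 in U251, and HIF1A at 0.30 and -0.22, neither called. CTCF was at -0.86 and -0.38, RUNX1 at -0.24 and -0.25, and ATF2 at 0.71 and 0.35.

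Among 20 other measured lncRNAs the calls were RPPH1 and RN7SK, given above. HOTAIRM1, from the HOXA cluster, was at 0.71 in U87MG and 0.17 in U251, DANCR at 0.97 and 0.16, and UCA1 at -0.13 and -0.73. Their median was 0.01 in U87MG and -0.02 in U251, and that of all 1074 measured miscRNA rows was -0.02 and -0.0033. Of those 1074 rows limma called 11 higher and 9 lower, where 1.16% and 2.61% of all rows tested were called. Before adjustment it counted 5 of the 20 other lncRNAs higher and 1 lower at p below 0.05, beside 8.29% and 12.8% of all rows.

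The genes whose pattern over the 4 libraries came closest to each lncRNA were sought among 10752 rows with at least 5 RPKM in some library, by Euclidean distance of mean-centred log2 values. For NEAT1 the closest was JUNB, an AP-1 transcription factor gene, at a distance of 0.167 where the median row was at 1.78. JUNB stood at 16.6 RPKM in U87MG KD against 27.1 in U87MG WT, and at 5.14 in U251 KD against 15.1 in U251 WT. IRF2, an interferon regulatory factor, followed at 0.303 and AGBL5 at 0.352. For MALAT1 the closest were LAPTM4A, a lysosomal membrane protein gene, at 0.0698, ARL15 at 0.118 and TBC1D17 at 0.12, where the median was 1.08. For MIR100HG they were the kinase gene MAP2K3 at 0.107, the adaptor SH2B3 at 0.166 and the pseudogene MRPS33P3 at 0.204, where the median was 1.44. For MIR22HG they were BRI3 at 0.186, PQLC2 at 0.194 and CYSTM1 at 0.194, where the median was 1.92, and for TUG1 TOM1L1 at 0.00403, C1orf27 at 0.00695 and SNORD81 at 0.0411, where it was 1.30. Over only 4 libraries, which every gene shares, the distance is a description.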

How the data were processed

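RNA was measured as RPKM, deposited by the authors in 1 table of 40205 rows and 4 libraries. Per the submitters' processing notes, Bowtie 0.12.2 and hg19 were used. The counting program, annotation, strand setting and treatment of multiply mapped reads were not given in the sources used here. The library protocol, per the labels, selected poly(A) RNA on oligo(dT) beads.

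Whole reads, library totals and gene model lengths were recovered from the steps between RPKM values. With a tolerance of 0.01 reads, 27954 of the 27973 rows above 0 (99.9%) came out whole. For very low rows this says little, since they can pass as 0 reads, as LIN28A did at 0.0089 RPKM in U251 KD. Ratios were taken from log2(RPKM + 1), a pseudocount of 1, which understates the change of low genes. Rows needed at least 1 RPKM in at least 1 library, leaving 16098. H19 did not pass, and the other 5 lncRNAs did. limma 3.58.1 (R 4.3.3; trend, two-sided, Benjamini-Hochberg threshold 0.05) fitted the arm with the cell line as a block, leaving 1 residual degree of freedom. The same fit gave the line difference. The arms pair by cell line, and deviations from the arm means correlated at r = 0.907 over 16098 genes. Exact binomial (Clopper-Pearson) intervals at 95% compared the reads of 2 libraries and cover counting error only.

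The 6 lncRNAs and the 12 gene lists were chosen with earlier results of these data known, and 254 of 256 listed genes had a row. Of each list, every called gene and up to 4 others with the largest mean ratio were named, with every measured neighbour and the 3 closest-pattern genes of each lncRNA. HMGA2, PSPC1, FAM98A, HIF1A and the RNAs without a tail were named after their values were seen. Some genes that these rules name are not reported here. The closest genes of H19 are not given, as it had 3 to 4 reads a library.

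Coordinates and transcripts come from GENCODE 29 on GRCh38, microRNA sequences from RefSeq. None was converted from hg19. The scripts were tested on simulated data. Alternatives were a pseudocount of 0.1, trimmed-mean and quantile rescaling, no filter, a filter in every library, no replicate block, and leaving out each library.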

Additional observations from a re-analysis of the deposited data

Results flagged for a closer look

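Several results took opposite signs in the lines. With 1 library for each line and arm, the difference between the lines was not tested. Among the lncRNAs, the log2 KD-over-WT ratio of MALAT1 was 0.70 in U87MG and -0.32 in U251, that of MIR100HG -0.60 and 0.53, that of MIR22HG 1.02 and -0.034, and that of TUG1 -0.077 and 0.041. MALAT1 and MIR100HG stand out by size in both lines, while TUG1 lies near 0 in both.

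Of the gene lists, the RNA end-processing genes had medians of -0.25 in U87MG and 0.032 in U251, the other lncRNAs 0.014 and -0.018, and the let-7 targets -0.034 and 0.063.

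Among 63 genes named by rule from the lists, the 6 lncRNAs and the cell type markers left out, 9 took opposite signs. EHBP1L1 was at -0.65 in U87MG and 0.25 in U251, FAM89B at 0.25 and -0.20, SSSCA1 at -0.15 and 0.25, SORL1 at 0.025 and -0.25, WDR81 at 0.29 and -0.18, MORC2 at -0.029 and 0.087, SMTN at -0.39 and 0.20, SELM at 0.64 and -0.21, and ELAC2 at -0.60 and 0.024. Over all rows tested, 31.8% took opposite signs. Of these 9 genes, all but ELAC2 are neighbours of the lncRNA genes, but the naming rule favours this. Every measured neighbour was named, whereas the other lists named called genes and those with the largest mean ratio, which tend to share a sign. Of the other genes named in the text, HIF1A was at 0.30 and -0.22, and the markers GFAP at 0.035 and -0.65, KRT18 at 0.43 and -0.16, and SOX2 at -0.10 and 0.043.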

How the results depend on the processing

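Of 100 recomputed ratios of the 5 measured lncRNAs, 3 changed sign: TUG1 in U87MG under trimmed-mean and quantile rescaling, and the MALAT1 difference between lines in WT under quantile rescaling. By mean ratio 3 of the 5 were lower and 2 higher in KD, against 1 lower and 4 higher under either rescaling, as MIR100HG and TUG1 had means near 0. Of 20 ratios of these lncRNAs within and between lines, 11 lay outside their counting interval under trimmed-mean and 11 under quantile rescaling. With either change of the filter 2 did, although their values stayed the same. The log2 ratio of NEAT1 in U87MG was -0.38 under trimmed-mean and -0.54 under quantile rescaling. Limma called 420 genes lower and 186 higher in KD. Trimmed-mean rescaling gave 174 and 116, the filter in every library 877 and 442, and quantile rescaling 315 higher. Limma called 0 in either direction without the filter (1890 lower and 1234 higher at an unadjusted p under 0.05) and 0 without the replicate block (183 and 79). Between lines it called 4347 lower and 3482 higher, against 2430 and 1856 without the filter, and 2482 and 1960 without the block. Listed genes called lower numbered 6, against 1 under trimmed-mean rescaling (SRSF1), 21 under the filter in every library and 0 without the filter or block, and those called higher numbered 3, against 0 without the filter or block. The filter in every library removed TLCD2 and E2F2. At a pseudocount of 0.1, rows past 2-fold lower numbered 1101 in U87MG and 719 in U251, against 577 and 275, and rows past 2-fold higher 726 and 470, against 375 and 188. Under the filter in every library, 148 rows were past 2-fold lower in U251, and 187 and 108 past 2-fold higher in U87MG and U251. Leaving out a library leaves the ratio of the other line, a value with no test: -1.47 and -0.47 for NEAT1, -0.32 and 0.70 for MALAT1, 0.53 and -0.60 for MIR100HG, -0.03 and 1.02 for MIR22HG, and 0.04 and -0.08 for TUG1. Depth limits H19 and the hairpin rows, which had at most 41 reads.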
